A study of Mus musculus with 19 samples.

Results

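The genes followed here mark the acute phase response and the regression (involution) of the mammary gland after weaning. They are Saa1, Saa2, Saa3, Lcn2, Lbp, Stat3, Socs3, Osmr, Igfbp5 and Lif. Their rows were taken by gene symbol from 19 tables of RNA-seq read counts of mouse mammary gland. All 10 were found among the 24421 genes listed, and all 10 were among the 17844 genes tested. The mice were C57BL/6 by the labels and C57BL/6N by the study's methods. WT mice gave 3 libraries at day 6 of pregnancy (p6) and 3 at day 18 (p18). Mice homozygous for a deletion of the super-enhancer of the casein locus, labelled Enhancer-delS1-4 and called ΔSE here, gave 4 libraries at each of these days. Mutants lacking a proximal enhancer of the casein gene Csn3 (delCsn3-PE, 2 libraries) or an enhancer of Csn1s2b (delCsn1s2b-E, 3 libraries) were labelled p18. The extraction notes of these 5 libraries name WT tissue at lactation instead, so their stage is given as labelled. None of the 10 genes lies in the casein locus.

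Acute phase proteins are made when cytokines of the IL-6 family or bacterial products reach a cell. LIF and oncostatin M bind receptors that include the OSMR and LIFR chains, JAK kinases phosphorylate STAT3, STAT3 enters the nucleus and activates its targets, and SOCS3 shuts the receptor off. In mammary tissue LIF and STAT3 are known as the switch that starts involution at weaning, with oncostatin M acting after LIF. Pregnancy is the phase before, in which alveoli form under prolactin and STAT5.

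The libraries held 12335272 to 20525175 reads in genes in WT and ΔSE tissue and 26848053 to 30329601 in the single-enhancer mutants. Levels are given as normalized CPM, read counts scaled to library size and by TMM over all 19 libraries, and 3 reads in 1 library equalled at most 0.237 normalized CPM in ΔSE tissue at p6. The ribosomal RNA gene Rn45s took 21.7 to 42.9% of the reads in WT and ΔSE libraries and 0.0765 to 0.924% in the single-enhancer mutants. No WT library had so low a share, so the values of the single-enhancer mutants are set beside the others without a test. Skeletal muscle transcripts were uneven, with a sum over 7 markers of 3.24 normalized CPM in WT replicate 1 at p18, 958 and 1414 in WT replicates 2 and 3, and 5.31 to 10.9 in the 4 ΔSE libraries of that day.

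The 3 serum amyloid A genes lie together on chromosome 7 (GRCm38, mm10). Saa3 spans bases 46711998 to 46715700, Saa1 46740497 to 46742980, both on the minus strand, and Saa2 46751790 to 46754313 on the plus strand, so that Saa1 and Saa2 point away from each other with 8.8 kb between their starts. The stretches just upstream of Saa1 and Saa2 are printed because they are nearly alike. They are taken from RefSeq promoters (GRCm38.p6), 5′ to 3′ on the strand of the gene, and stop where the GENCODE gene begins. Capitals mark the bases that differ between the 2 genes after alignment, and over 250 bases 95.2% of the aligned positions were identical. The Saa1 sequence is chr7:46742981-46743230 (minus strand) and the Saa2 sequence chr7:46751583-46751789 (plus strand).
Saa1: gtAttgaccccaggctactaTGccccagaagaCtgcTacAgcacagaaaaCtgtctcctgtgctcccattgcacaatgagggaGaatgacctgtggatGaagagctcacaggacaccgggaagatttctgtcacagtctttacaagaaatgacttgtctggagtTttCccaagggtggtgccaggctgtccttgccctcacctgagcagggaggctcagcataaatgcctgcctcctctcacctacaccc
Saa2: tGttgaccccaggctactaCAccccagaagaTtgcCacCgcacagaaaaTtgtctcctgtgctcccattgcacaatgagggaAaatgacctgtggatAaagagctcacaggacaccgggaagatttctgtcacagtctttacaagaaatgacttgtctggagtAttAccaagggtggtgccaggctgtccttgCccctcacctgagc

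Saa3 was 52.1% identical to Saa1 upstream and 50.8% to Saa2. Each promoter was searched for the STAT motif TTCNNNGAA, which reads the same on both strands, over the 250 bases before the start. Of the 9 genes with an entry, 1 held it, against 7.02% of 32851 promoters of that length. It was Socs3, the STAT3 target that inhibits STAT3 signalling. The motif begins 154 bases before the RefSeq start, and is shown in capitals with its flanks (chr11:117969502-117969530, minus strand). GENCODE has a longer non-coding Socs3 transcript that begins at 117970047, so that in its annotation the stretch lies inside the gene, outside any exon and upstream of the coding transcript, which begins at 117969186.
Socs3: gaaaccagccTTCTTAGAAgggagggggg

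The other genes lie elsewhere in the same build. Lcn2 (chromosome 2, 32384633 to 32388252, minus strand) and Lbp (chromosome 2, 158306493 to 158332852, plus strand) share a chromosome. Stat3 (100885098 to 100939540, minus strand), Socs3 (117966079 to 117970047, minus strand) and Lif (4257557 to 4272514, plus strand) are on chromosome 11. Osmr is on chromosome 15 (6813577 to 6874969, minus strand) and Igfbp5 on chromosome 1 (72857932 to 72874884, minus strand). All 10 are protein-coding.

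**Figure D1:**
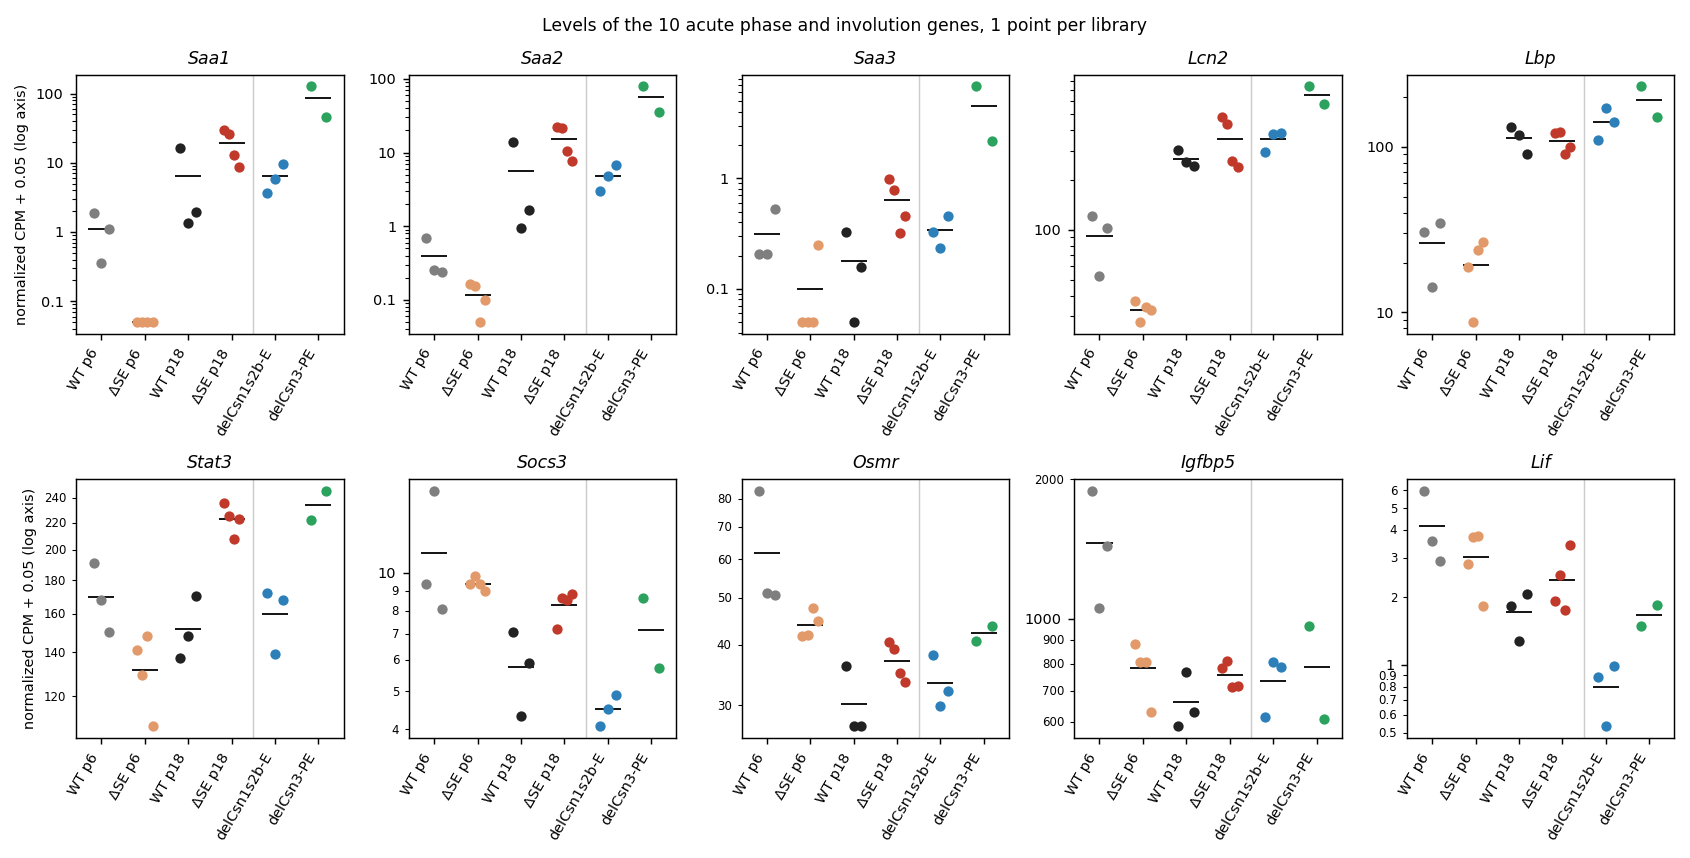
Each panel plots 1 gene, each point is 1 library and each bar is the mean of a group. The vertical axes are normalized CPM plus 0.05 on a log scale, each with its own range. Saa1 had no reads in any of the 4 ΔSE libraries at p6, and the 2 delCsn3-PE libraries were the highest of all for Saa1, Saa2, Saa3 and Lcn2.

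In WT tissue, 4 of the 10 genes rose from p6 to p18 and 4 fell. The secreted acute phase proteins Saa1, Saa2, Lcn2 and Lbp rose, and the signalling genes Socs3, Osmr and Lif fell together with Igfbp5. Saa3 and Stat3 did not pass the test. Over all genes tested, 17.2% rose and 12.4% fell in this comparison, with a median log2 fold change of -0.05, and the median over the 10 genes was -0.54. Where groups are said not to overlap, here and below, the share of all genes so separated is not given. In bulk tissue, fewer cells of a type cannot be told apart from less RNA per cell. The summed level of 7 luminal epithelial markers was 775 to 1089 normalized CPM in WT at p6 and 955 to 1482 at p18, and 2 of the 7 rose. Sums of other markers moved with the day without overlap, the secretory alveolar ones from 136 to 3127 up to 57293 to 79466 (6 of 6 rose), the myoepithelial ones from 514 to 1139 up to 1517 to 1788 (3 of 7 rose, 1 fell) and the adipocyte ones from 2062 to 3058 down to 1748 to 1804 (2 of 8 fell). Their part in the changes of the 10 genes was not tested. With 1 factor of unwanted variation in the fit, none of the 8 calls was kept. Of that factor's variance, 91.2% lay between the 2 days.

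Lcn2, which encodes lipocalin-2, an iron-chelate binding protein that starves bacteria of iron, stood at 121, 52.2 and 102 normalized CPM in the 3 WT libraries at p6. At p18 the 3 WT libraries held 303, 256 and 243. Every library of p18 was above every library of p6, and the log2 fold change was 1.57 (SE 0.29, adjusted p = 0.000718). Lbp, the lipopolysaccharide binding protein that hands endotoxin to CD14, stood at 30.4, 14.2 and 34.4 at p6 and at 131, 118 and 90.6 at p18. Its log2 fold change was 2.13 (SE 0.34, adjusted p = 0.000257), again without overlap between the days.

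Saa1 and Saa2 encode the 2 serum amyloid A proteins that circulate on HDL in an acute phase response. Saa1 stood at 1.82, 0.31 and 1.05 normalized CPM in WT at p6 and at 16.2, 1.3 and 1.91 at p18. Replicate 1 at p18 stood apart, and the other 2 libraries of that day were within or just above the range of p6. The log2 fold change was 2.70 (SE 0.91, adjusted p = 0.0386), but 0.70 (adjusted p = 0.478) without that library. The call was also lost in a fit of the WT libraries alone (2.67, adjusted p = 0.0877), without replicate 2 at p6 (2.22, adjusted p = 0.11) and without replicate 3 at p6 (2.73, adjusted p = 0.0875). WT replicate 1 is the WT library of p18 nearly free of muscle transcripts, and with the muscle level as a covariate the value was 0.46 (adjusted p = 0.622).

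Saa2 showed the same library standing apart. It stood at 0.632, 0.207 and 0.191 at p6 and at 14, 0.909 and 1.6 at p18, and here the days did not overlap. The log2 fold change of 4.13 (SE 0.94, adjusted p = 0.00347) dropped to 2.01 (adjusted p = 0.0298) without WT replicate 1 at p18 and to 1.86 (adjusted p = 0.0368) with the muscle covariate. Without replicate 1 at p6 it was 4.75. Both genes were counted from few reads at p6, with 6 to 23 reads of Saa1 and 4 to 8 of Saa2 in a library. Saa3, which unlike them is made mostly outside the liver, had 2 to 10 reads at p6 and 0 to 4 at p18 (0.158, 0.155 and 0.477 against 0.275, 0 and 0.106 normalized CPM), and a change could not be seen at this depth.

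Among the genes that fell in WT tissue were a receptor, an inhibitor and a cytokine. Osmr, the receptor subunit for oncostatin M, stood at 83.1, 51.2 and 50.7 normalized CPM at p6 and at 36.1, 27.1 and 27.1 at p18, a log2 fold change of -1.01 (SE 0.18, adjusted p = 0.000574). Socs3 stood at 9.33, 16.1 and 8.02 at p6 and at 7.02, 4.28 and 5.85 at p18 (log2 fold change -0.94, SE 0.24, adjusted p = 0.00727, and 0.0602 in a fit of the WT libraries alone). The highest p18 library of Socs3 lay close under the lowest p6 library. Lif, the cytokine that triggers involution, was low, at 5.93, 3.52 and 2.86 at p6 and at 1.79, 1.23 and 2.02 at p18. Its log2 fold change of -1.24 (SE 0.37, adjusted p = 0.0196) was -0.89 (adjusted p = 0.0988) without WT replicate 1 at p6 and -1.05 (adjusted p = 0.0875) without WT replicate 2 at p18. With both muscle-rich WT libraries of p18 left out, a choice made after seeing the data, the values were -0.73 for Osmr, -0.63 for Socs3 and -1.14 for Lif, and none passed, with 1 WT library left at p18 that was assumed to vary like the other groups.

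Igfbp5, the IGF binding protein known to rise under STAT3 at involution, stood at 1888, 1053 and 1432 normalized CPM in WT at p6 and at 586, 766 and 630 at p18, with no overlap. The log2 fold change was -1.12 (SE 0.20, adjusted p = 0.000618), and it lay between -1.32 and -0.89 whichever library was left out. Stat3 itself stood at 191, 168 and 150 at p6 and at 137, 148 and 170 at p18, a log2 fold change of -0.13 (SE 0.14, adjusted p = 0.505) with the days overlapping.

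**Figure D2:**
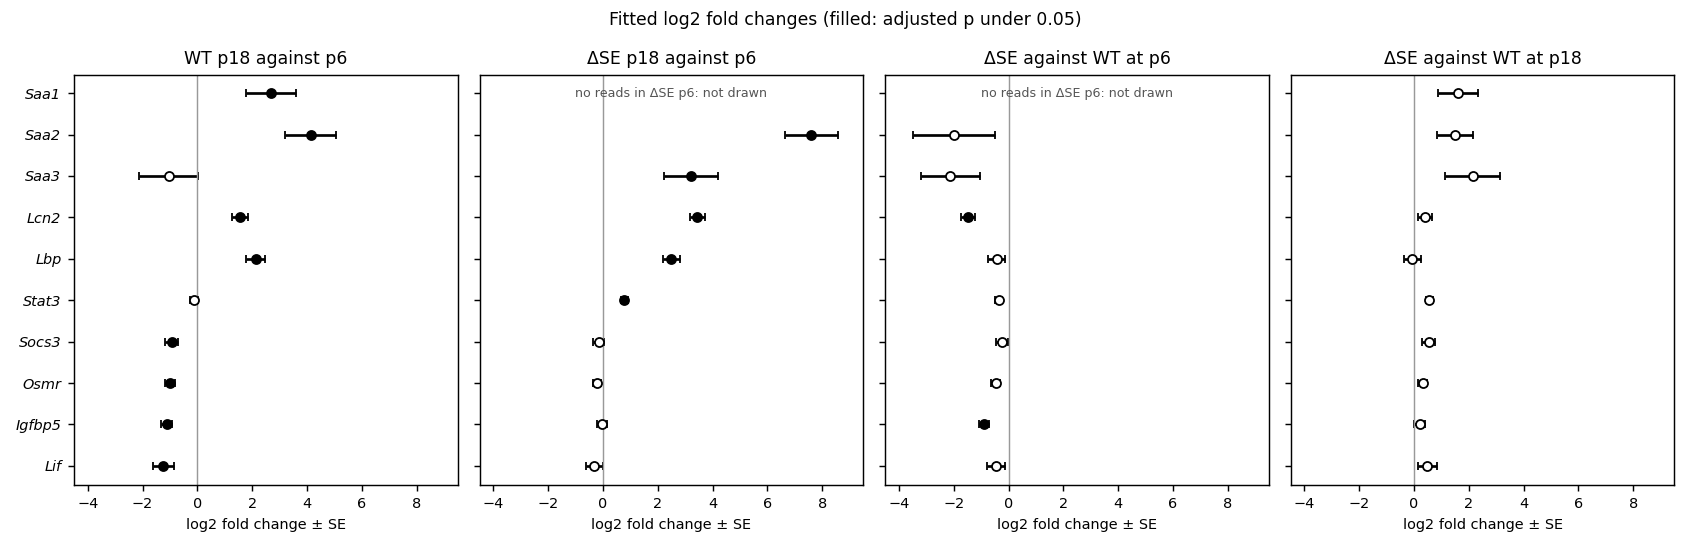
The log2 fold changes of the 10 genes are drawn with their SE (bars) in 4 comparisons, filled where the adjusted p was under 0.05. From p6 to p18 in ΔSE tissue, Saa2, Saa3, Lcn2, Lbp and Stat3 are filled to the right of 0 and no gene to the left. Saa1, which rose too, is not drawn there, since the 4 ΔSE libraries of p6 held no reads.

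In ΔSE tissue, 6 of the 10 genes rose from p6 to p18 and none fell. Saa1, Saa2, Saa3, Lcn2, Lbp and Stat3 rose, while Socs3, Osmr, Igfbp5 and Lif did not pass the test. Among all genes, 17.3% rose and 18.3% fell, with a median log2 fold change of -0.07. The median over the 10 genes was 1.64, also with Saa1 set at its lower bound. The sum of the luminal epithelial markers was 475 to 936 normalized CPM at p6 and 1344 to 1448 at p18, and all 7 rose. Secretory alveolar markers summed to 64.5 to 218 at p6 and to 26832 to 53835 at p18, and 6 of 6 rose. Of 7 myoepithelial markers 3 rose and 1 fell. Lower at p18 were 5 of 8 adipocyte, 5 of 6 fibroblast and 7 of 7 muscle markers. The part of these in the changes was not tested. With 1 factor of unwanted variation none of the 6 calls was kept, nor any call of edgeR among all genes (646 had an unadjusted p under 0.05), and the log2 fold changes stayed above 0, at 4.86 for Saa2, 1.54 for Lcn2, 0.52 for Stat3 and 0.49 for Lbp.

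Saa1 had no reads in any of the 4 ΔSE libraries at p6, where 3 reads would have been at most 0.237 normalized CPM. At p18 it stood at 30.1, 26.4, 12.9 and 8.72, so it was at least 82.4-fold higher against that floor of 3 reads in a library (adjusted p = 9.29e-05). Saa2 had 5 reads over the 4 libraries at p6, at 0 to 0.113 normalized CPM, and stood at 22.1, 21.4, 10.4 and 7.65 at p18. Its log2 fold change was 7.61 (SE 0.98, adjusted p = 2.66e-05) and rests on those 5 reads. Saa3 stood at 0.938, 0.73, 0.273 and 0.403 at p18. At p6 it had reads in replicate 4 alone, at 0.198. The log2 fold change of 3.21 (SE 1, adjusted p = 0.0193) did not pass without replicate 1 at p18 (2.90, adjusted p = 0.0554), without replicate 2 at p6 (2.83, adjusted p = 0.0521) or with the muscle covariate (2.90, adjusted p = 0.2), and was 6.21 without replicate 4 at p6.

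Of the 5 of these 10 genes with over 10 normalized CPM in ΔSE at p6, Lcn2 had the largest change. It stood at 37, 27.6, 34.2 and 32.7 normalized CPM at p6 and at 484, 434, 262 and 240 at p18. That was a log2 fold change of 3.45 (SE 0.27, adjusted p = 3.94e-07), rank 30 by p among all genes. Lbp stood at 18.7, 8.7, 23.6 and 26.5 at p6 and at 120, 122, 90.8 and 100 at p18 (log2 fold change 2.5, SE 0.30, adjusted p = 1.45e-05). Both genes kept their days apart in every library.

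Stat3 stood at 141, 129, 148 and 108 normalized CPM in ΔSE at p6 and at 236, 225, 208 and 223 at p18. All libraries of p18 were above all of p6, and the log2 fold change was 0.78 (SE 0.12, adjusted p = 0.00014). Osmr, its upstream receptor, stood at 41.6, 41.9, 47.5 and 44.8 at p6 and at 40.5, 39.2, 35 and 33.5 at p18 (log2 fold change -0.23, SE 0.15, adjusted p = 0.264). Socs3 ranged from 8.91 to 9.74 at p6 and from 7.13 to 8.79 at p18 (-0.16, SE 0.21, adjusted p = 0.582), Igfbp5 from 630 to 882 and from 712 to 809 (-0.03, SE 0.17, adjusted p = 0.9), and Lif from 1.78 to 3.72 and from 1.7 to 3.36 (-0.31, SE 0.32, adjusted p = 0.486). Scaling by library totals alone moved the median of all genes in ΔSE to -0.65. Under it Osmr (-0.83), Socs3 (-0.75), Lif (-0.89) and Igfbp5 (-0.63) passed as lower, close to that median, and Stat3 (0.19) no longer passed.

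The ΔSE and WT libraries were then compared within each day. At p6, 2 of the 10 genes were lower in ΔSE, Lcn2 and Igfbp5, and none was higher, against 0.527% of all genes lower and 0.499% higher. The median log2 fold change over the 10 was -0.68, also with Saa1 at its bound, and 0.01 over all genes. Lcn2 at 27.6 to 37 normalized CPM in the 4 ΔSE libraries was below the WT range of 52.2 to 121 (log2 fold change -1.47, SE 0.26, adjusted p = 0.0241). Igfbp5 at 630 to 882 was below the WT range of 1053 to 1888 (-0.88, SE 0.18, adjusted p = 0.0371).

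Both calls at p6 were fragile. Of the 7 libraries of that day, leaving out WT replicate 1, WT replicate 3, or ΔSE replicate 2, 3 or 4 left neither gene called, with adjusted p of 0.0546 to 0.128 for Lcn2 and 0.0734 to 0.175 for Igfbp5. With any 1 of the 7 left out, the log2 fold changes stayed at -1.76 to -1.22 for Lcn2 and at -1.08 to -0.66 for Igfbp5. Without WT replicate 2 the adjusted p was lower, 0.000281 for Lcn2 and 0.000874 for Igfbp5. DESeq2, which called 908 genes in all, gave 2.82e-05 and 9.1e-05. A fit of the p6 libraries alone gave adjusted p of 0.202 for Lcn2 and 0.268 for Igfbp5. The libraries differed in alveolar content at this day, with 6 secretory alveolar markers summing to 3127, 136 and 2913 normalized CPM in WT replicates 1 to 3 and to 64.5 to 218 in ΔSE, and WT replicate 2 was also the lowest WT library for Lcn2, Lbp, Saa1 and Igfbp5. Fibroblast markers summed to 1068, 9516 and 4006 in WT and to 9978 to 12918 in ΔSE, and the part of either in these results was not tested.

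The remaining 8 genes did not pass at p6. Saa1, with no reads in ΔSE, was at least 4.47-fold lower than the WT mean of 1.06 normalized CPM against the same floor, with an adjusted p of 0.133. Stat3 (-0.35, SE 0.13, adjusted p = 0.174) and Osmr (-0.47, SE 0.16, adjusted p = 0.153) did not overlap between the genotypes, nor did Saa2 with its 5 ΔSE reads (-1.99, SE 1.51, adjusted p = 0.553). How many of all genes did not overlap at p6 is not given, so this does not set these genes apart. Osmr passed (-0.60, adjusted p = 0.0387) without WT replicate 2. Lbp (-0.43), Socs3 (-0.25) and Lif (-0.44) overlapped, as did Saa3.

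At p18 none of the 10 genes passed between ΔSE and WT by edgeR's quasi-likelihood test. An unadjusted p under 0.05 was held by 5 of the 10, against 12.3% of all genes. DESeq2 called 1 of the 10, and 496 genes in all. By edgeR 0.101% of all genes were called higher and 0.213% lower. Stat3 came nearest. Its 208 to 236 normalized CPM in ΔSE lay above the 137 to 170 in WT, a log2 fold change of 0.56 (SE 0.13, adjusted p = 0.0781). The adjusted p was 0.00166 by DESeq2 and 0.00498 in a fit of the p18 libraries alone. Of 17 alternative settings, 15 did not pass, among them the muscle covariate (0.52, adjusted p = 0.289). Socs3 was at 7.13 to 8.79 in ΔSE and at 4.28 to 7.02 in WT (0.53, SE 0.23, adjusted p = 0.356).

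Saa1 and Saa2 at p18 turned on WT replicate 1. Its Saa1 level of 16.2 lay inside the ΔSE range of 8.72 to 30.1, and the other WT libraries, at 1.3 and 1.91, lay below it. The log2 fold changes were 1.60 (SE 0.74, adjusted p = 0.4) for Saa1 and 1.49 (SE 0.66, adjusted p = 0.376) for Saa2. Without that library they were 3.59 (adjusted p = 0.0661) and 3.60 (adjusted p = 0.0274). WT replicate 1 was the only WT library of p18 about as low in muscle transcripts as the ΔSE libraries. Without it, genotype and muscle content cannot be told apart. With the muscle level as a covariate the values were 0.51 (adjusted p = 0.825) and 0.5 (adjusted p = 0.792). With WT replicates 2 and 3 left out instead, chosen after seeing the data, they were 0.25 and 0.11. Lcn2 at 240 to 484 against 243 to 303 (0.41, SE 0.26, adjusted p = 0.556) and Lbp at 90.8 to 122 against 90.6 to 131 (-0.06, SE 0.30, adjusted p = 0.969) overlapped between the genotypes.

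Whether the change from p6 to p18 differed between the genotypes was tested by the interaction term. None of the 10 genes passed by edgeR's quasi-likelihood test, which called 0.151% of all genes. An unadjusted p under 0.05 was held by 7 of them, against 16.6% of all genes. DESeq2 called 5 of the 10, and 584 genes in all. The term was above 0, meaning more positive in ΔSE, for 10 of the 10 genes and for 45.6% of all genes, and its median was 1.01 for the 10 and -0.06 for all. Lcn2 (1.88, SE 0.38) and Stat3 (0.91, SE 0.18) had the same adjusted p of 0.0526, and Igfbp5 (1.09, SE 0.26) had 0.0815. Without WT replicate 2 at p6, the WT library low in alveolar transcripts, 5 genes passed, Lcn2 (2.20, adjusted p = 0.00157), Igfbp5 (1.31, adjusted p = 0.00479), Stat3 (0.96, adjusted p = 0.011), Osmr (0.93, adjusted p = 0.0308) and Saa1 (adjusted p = 0.0339). Stat3 alone passed without WT replicate 3 at p6 (1.03, adjusted p = 0.048) or without ΔSE replicate 1 at p6 (1.00, adjusted p = 0.0441). The share of all genes called in these reduced fits is not given here.

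**Figure D3:**
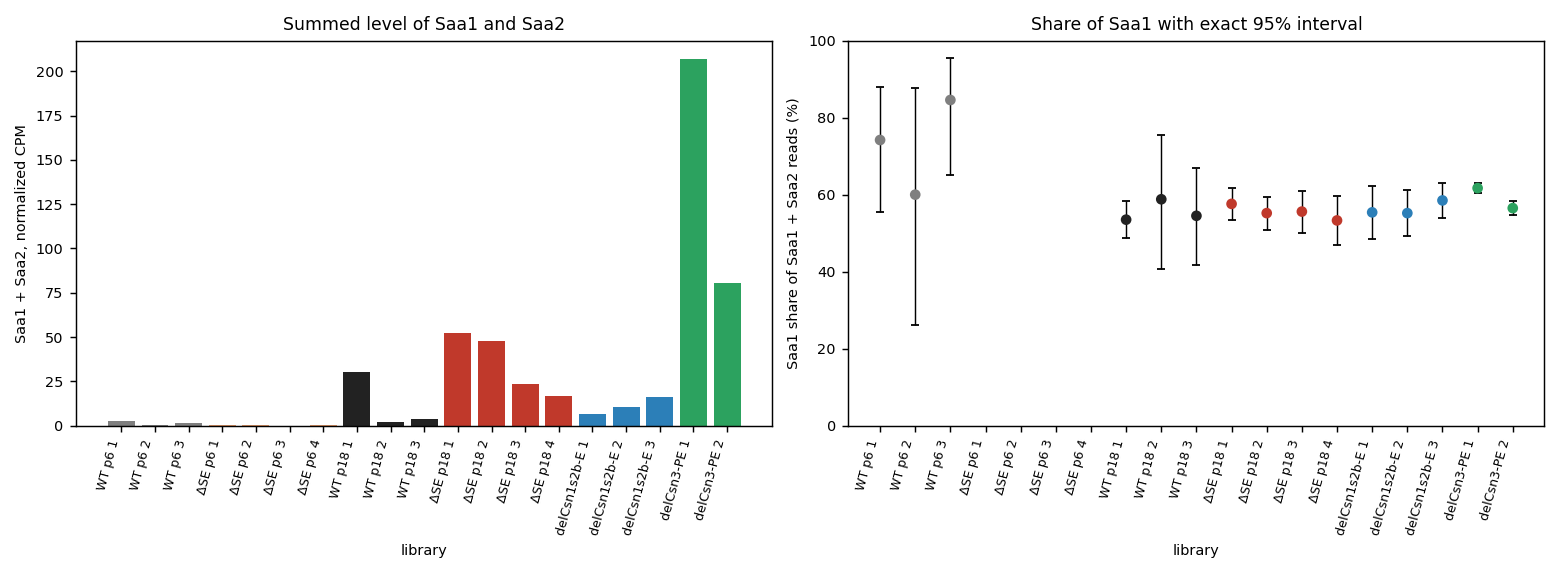
The left panel gives the summed normalized CPM of Saa1 and Saa2 in each library, and the right panel the share of Saa1 in the reads of both with exact binomial 95% intervals, for libraries with at least 10 such reads. The delCsn3-PE libraries reached 207 and 80.4, and the share lay between 53.3 and 61.7% in all libraries labelled p18.

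Reads of Saa1 and Saa2 may be exchanged, since 13.2% of the 50-base stretches of the Saa1 coding transcript also occur in those of Saa2. RefSeq also lists each symbol as a synonym of the other. Saa3 shared 0.352% of its stretches with Saa1 and none with Saa2. Saa1 made up 53.3 to 61.7% of the summed reads in each of the 12 libraries labelled p18, also where the sum ranged from 34 to 5871 reads. In WT at p6 the share was 74.2% (55.4 to 88.1%, exact interval of 31 reads), 60% (26.2 to 87.8%, 10 reads) and 84.6% (65.1 to 95.6%, 26 reads). These intervals cover counting error only. Added together, the pair had a log2 fold change of 3.20 (adjusted p = 0.00873) between the days in WT and of 8.79 in ΔSE (adjusted p = 1.5e-05).

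The single-enhancer mutants were placed beside these groups without a test. Saa1 reached 127 and 45.4 normalized CPM in the 2 delCsn3-PE libraries and 3.65, 5.87 and 9.44 in the 3 delCsn1s2b-E libraries. Saa2 stood at 79.1 and 35 in delCsn3-PE and at 2.94, 4.75 and 6.69 in delCsn1s2b-E. Both delCsn3-PE libraries were above all 17 others for Saa1, Saa2, Saa3 and Lcn2, and the first of them was the higher in each.

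Saa3 showed the same order, at 6.75 and 2.12 in delCsn3-PE and at 0.278, 0.186 and 0.402 in delCsn1s2b-E. Lcn2 was at 738 and 578 in delCsn3-PE and at 295, 381 and 385 in delCsn1s2b-E, the latter within the ΔSE range of p18. Lbp was at 231 and 150 in delCsn3-PE and at 109, 171 and 140 in delCsn1s2b-E. Neutrophil markers summed to 6.71 and 8.51 in delCsn3-PE, to 6.4 to 8.21 in delCsn1s2b-E and to 16.1 to 27.6 in WT and ΔSE at p18. Much of this gap was the single gene Ngp, at 0 to 0.0268 in delCsn3-PE and 0 to 0.223 in delCsn1s2b-E. At p18 Ngp was at 8.2 to 11.6 in WT and 11.2 to 20 in ΔSE. Another marker, S100a8, was at 1.69 to 2.6 in delCsn3-PE, against 0.851 to 1.1 in WT and 0.671 to 2.06 in ΔSE at p18. Other markers of the list did not stand higher in delCsn3-PE than in WT at p18. S100a9 was at 0.349 to 0.422 against 0.275 to 0.851, Csf3r at 1.55 to 1.64 against 1.33 to 2, and Mmp9 at 2.39 to 3.31 against 3.3 to 5.58. Lymphocyte markers summed to 68.3 and 96 in delCsn3-PE, to 11.3 to 22.7 in delCsn1s2b-E and to 5.37 to 46.2 in WT and ΔSE at p18. Hepatocyte markers summed to 115 and 159, to 118 to 181 and to 37.6 to 60.1, and in delCsn3-PE 111 to 155 of this was Cyp2e1, with Alb, the albumin gene, at 3.2 to 3.57 and Ttr at 0. The part of these cells in the levels was not tested.

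The signalling genes were closer together. Stat3 was at 222 and 246 in delCsn3-PE and at 172, 139 and 168 in delCsn1s2b-E. Socs3 was at 8.55 and 5.66 and at 4.02, 4.46 and 4.85. Osmr was at 40.6 and 43.7 and at 38, 29.9 and 32.1. Both Osmr values of delCsn3-PE and 1 of its Stat3 values were above the highest WT or ΔSE value of p18, 40.5 for Osmr and 236 for Stat3. Igfbp5 was at 963 and 607 in delCsn3-PE and at 614, 805 and 787 in delCsn1s2b-E. Lif was at 1.44 and 1.8 and at 0.835, 0.483 and 0.937, so that the 3 delCsn1s2b-E libraries were the lowest of the 19 for Lif.

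Levels of different genes were set against each other per kb of the longest coding transcript. In WT at p6 the order was led by Igfbp5 (243 ± 69.6 normalized CPM per kb, SD, n = 3), Lcn2 (100 ± 38.8) and Stat3 (28 ± 3.39). At p18 Lcn2 (292 ± 34.6) was first in WT, before Igfbp5 (110 ± 15.6) and Lbp (44.8 ± 8.24). In ΔSE the order of Lcn2 and Igfbp5 changed in the same way, with Lcn2 at 36 ± 4.32 at p6 and 388 ± 133 at p18 (SD, n = 4) and Igfbp5 at 130 ± 17.8 and 126 ± 8.04. Saa1 went from the lowest place in ΔSE at p6, at 0, to 32 ± 16.9 at p18, a level that does not differ from Stat3 (36.9 ± 1.87) beyond its spread. Lif was at most 1.02 normalized CPM per kb in any group.

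For the 5 genes with at least 10 normalized CPM on average, the gene with the most similar profile over the 14 WT and ΔSE libraries was sought among 8506 candidates, by the mean absolute difference of centred log2 levels. Card14 was nearest to Lcn2 (difference 0.29, against a median of 1.28 over the candidates). Sec14l2 was nearest to Lbp (0.27, median 1.15) and Zbtb10 to Stat3 (0.08, median 0.34). Fryl was nearest to Osmr (0.10, median 0.41) and Myo18a to Igfbp5 (0.17, median 0.43).

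**Figure D4:**
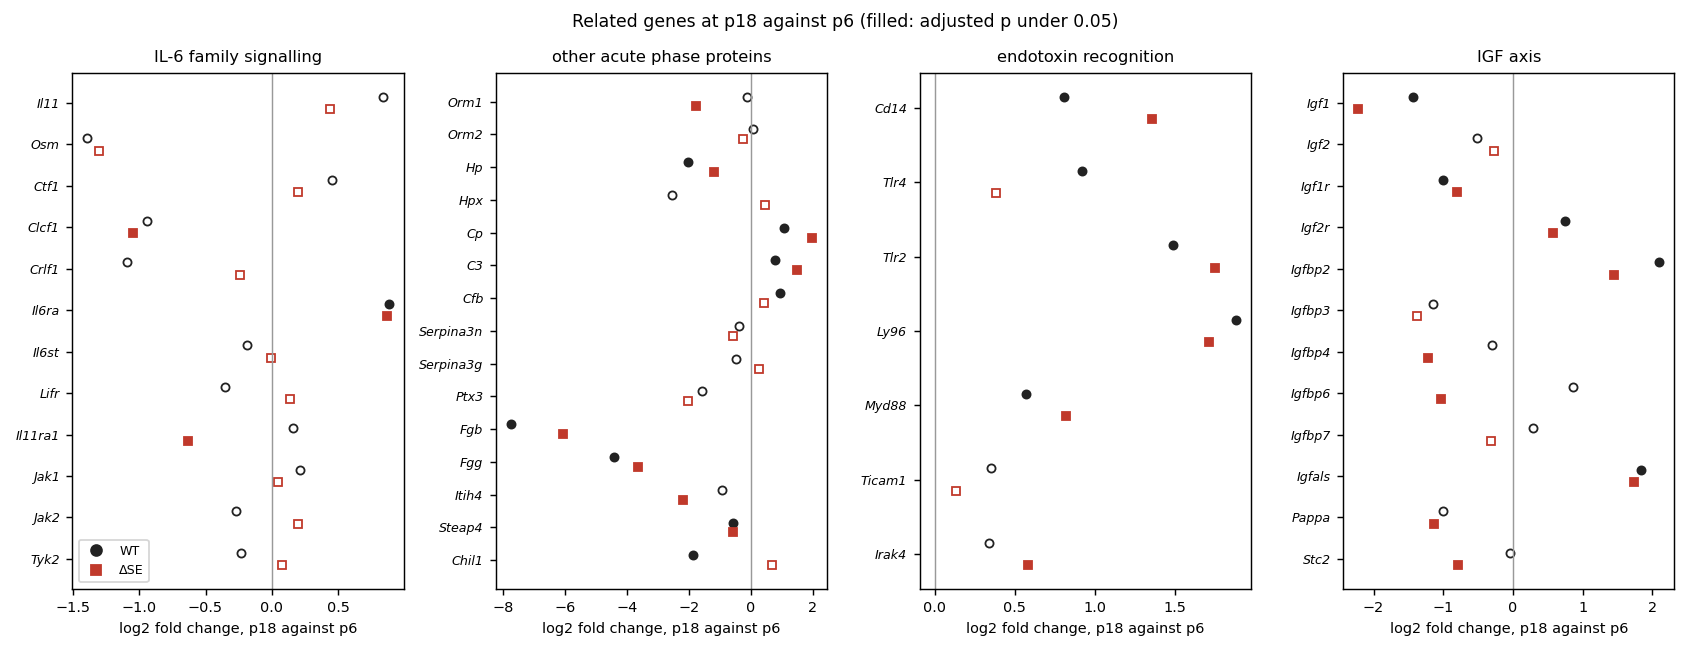
Log2 fold changes from p6 to p18 of 4 lists of related genes, with WT as circles, ΔSE as squares and filled symbols where the adjusted p was under 0.05. In the endotoxin recognition list 5 of 7 genes were filled in each genotype, all to the right of 0.

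Other genes around the pathway were read from lists, and their counts stand beside the 17.2% of all genes that rose and 12.4% that fell in WT, and the 17.3% and 18.3% in ΔSE. Of 7 genes of endotoxin recognition, to which Lbp delivers its ligand, 5 rose and none fell from p6 to p18 in WT (median log2 fold change 0.81), and 5 rose and none fell in ΔSE (median 0.82). Tlr2, a receptor for bacterial lipoproteins, rose by a log2 fold change of 1.49 (SE 0.22) in WT and of 1.75 (SE 0.19) in ΔSE. Ly96, the partner of TLR4 that holds lipopolysaccharide, rose from 1.63 to 5.86 normalized CPM in WT (1.88, SE 0.31) and from 2.29 to 7.5 in ΔSE (1.71, SE 0.26). The adaptor Myd88 rose by 0.57 (SE 0.11) and 0.82 (SE 0.09).

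Of 15 other acute phase proteins tested, 3 rose and 5 fell in WT (median -0.58), and 2 rose and 6 fell in ΔSE (median -0.56). Hp, the haemoglobin binder haptoglobin, fell from 147 to 35.1 normalized CPM in WT (-2.04, SE 0.29) and from 78 to 34 in ΔSE (-1.18, SE 0.24). Fgg, a fibrinogen chain, fell from 5.64 to 0.262 in WT (-4.42, SE 0.68) and from 6.3 to 0.479 in ΔSE (-3.65, SE 0.55). Its p18 levels were near the floor, where 3 reads in a library equalled up to 0.207 in WT and 0.281 in ΔSE. The copper carrier Cp rose in WT (1.08, SE 0.28) and in ΔSE (1.98, SE 0.25), as did complement C3 (0.77, SE 0.23 and 1.5, SE 0.20). The complement factor Cfb rose in WT (0.94, SE 0.21) and had a log2 fold change of 0.43 (adjusted p = 0.0663) in ΔSE. The list thus held members that moved with Saa2, Lcn2 and Lbp and members that moved the other way.

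Of 12 ligands, receptors and kinases of the IL-6 family beside Lif, Osmr and Stat3, 1 rose in WT and none fell, and 1 rose and 2 fell in ΔSE. The riser was the IL-6 receptor chain Il6ra, by 0.88 (SE 0.18) in WT and 0.87 (SE 0.16) in ΔSE. The cytokine Clcf1 (-1.05, SE 0.39) and the IL-11 receptor Il11ra1 (-0.63, SE 0.13) fell in ΔSE, with -0.94 (adjusted p = 0.105) and 0.16 (adjusted p = 0.474) in WT. Among 11 other inhibitors of cytokine signalling 2 fell in WT, and 1 rose and 5 fell in ΔSE. Socs5 fell in both (-1.02, SE 0.16 and -1, SE 0.14), and the STAT5 target Cish rose in ΔSE (1.55, SE 0.23), with 0.55 (SE 0.26, adjusted p = 0.118) in WT. Cish was also lower in ΔSE than in WT at p6 (-1.25, SE 0.25, adjusted p = 0.0328), a call that was not recomputed under other settings.

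Of 17 further STAT3 targets and involution effectors, 1 rose and 2 fell in WT (17.2 and 12.4% of all genes), and 5 rose and 1 fell in ΔSE (17.3 and 18.3%). In WT the lysosomal protease Ctsl rose (1.23, SE 0.22) and the early response gene Junb fell (-0.92, SE 0.23), with 0.43 (adjusted p = 0.0908) and 0.30 (adjusted p = 0.277) in ΔSE. In ΔSE the growth factor Tgfb3 rose from 67.4 to 147 normalized CPM (1.15, SE 0.16), the transcription factor Cebpb from 10.1 to 19.4 (0.96, SE 0.20) and the PI3K subunit Pik3r1 from 294 to 470 (0.69, SE 0.17), while Plat, the tissue plasminogen activator, fell (-1.65, SE 0.32). In WT these 4 had log2 fold changes of 0.26, 0.33, 0.17 and 0.23, none past the test. Of these 17 genes none was called between the genotypes at either day by edgeR. Among all genes such calls were rare, 0.499% higher and 0.527% lower at p6 and 0.101% and 0.213% at p18.

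Of 12 genes of the IGF axis beside Igfbp5, 3 rose and 2 fell in WT, near the shares of all genes (17.2 and 12.4%), and 3 rose and 6 fell in ΔSE (17.3 and 18.3%). Igf1, the growth factor that IGFBP5 binds, fell in WT from 91.8 to 33.6 normalized CPM (-1.43, SE 0.24) and in ΔSE from 170 to 36 (-2.22, SE 0.22). Igfals, whose protein forms the ternary complex with IGFs and IGFBP3 or IGFBP5, rose (1.83, SE 0.22 and 1.73, SE 0.19). Igfbp4 fell in ΔSE (-1.22, SE 0.19, against -0.30 in WT, adjusted p = 0.315). It was higher in ΔSE than in WT at p6 (1.02, SE 0.21, adjusted p = 0.0337). That genotype call was not recomputed under other settings.

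Of 7 inflammatory cytokine genes tested, 3 fell in WT between the days, and 1 rose and 1 fell in ΔSE. Tnf, which induces acute phase genes, fell in WT from 4.91 to 0.987 normalized CPM (-2.27, SE 0.37), had a log2 fold change of -0.03 (SE 0.30) in ΔSE, and was higher in ΔSE than in WT at p18, at 3.45 (1.80, SE 0.36, adjusted p = 0.0496). Nfkbia, the NF-kB inhibitor and target, rose in ΔSE (1.40, SE 0.16) against -0.02 (SE 0.18) in WT. It was lower in ΔSE than in WT at p6 (-0.75, SE 0.17, adjusted p = 0.047). Its interaction term was 1.42 (SE 0.24, adjusted p = 0.0462). The genotype calls of Tnf and Nfkbia and this interaction call lay close under the threshold of 0.05. They were not recomputed under other settings or with libraries left out. Whether the uneven muscle content of the WT libraries of p18 had a part in the Tnf call was not tested.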

How the data were processed

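RNA was total RNA depleted of ribosomal RNA and sequenced as 50-base pairs. The values are read counts per gene that the authors deposited without normalization. Per the labels and the methods, the authors trimmed reads with Trimmomatic, aligned them to mm10 with STAR and counted with HTSeq. Summary entries that name no gene, present in the 5 single-enhancer files (23.5 to 30.6% of reads), were left out. Replicates are described as independent biological samples. Part of the study's WT RNA-seq came from earlier data sets, and whether the WT libraries used here did was not clear from the sources.

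Genes with 10 or more reads in total over the 14 WT and ΔSE libraries were fitted in one model of 4 groups by edgeR 4.0.16 (R 4.3.3, TMM, quasi-likelihood test), with Benjamini-Hochberg adjustment over all genes tested and a threshold of 0.05. Alternatives included DESeq2 1.42.0, 1 factor of unwanted variation (control genes being those outside the 5000 lowest p), other scalings and filters, and each library left out. Genes of the related lists were named by p, up to 4 in a list. The 10 genes and the lists were chosen with earlier results of these data known. Replicate numbers did not pair the libraries.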

Additional observations from a re-analysis of the deposited data

Results flagged for a closer look

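Saa3 in ΔSE tissue at p6 was marked because 1 library stood far from the rest of its group. Replicate 4 held 4 reads, 0.198 normalized CPM, and the other 3 libraries held none. Of the 19 sets of 4 libraries looked at in this way, chance alone marks about 1 in 20.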

How the results depend on the processing

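Over the 50 results, 10 genes in 5 comparisons, 895 values under other settings were computed, of which 814 kept their direction and side of the threshold, 45 lost the threshold, 26 gained it, 9 moved and 1 reversed. From p6 to p18, 1 factor of unwanted variation left 0 of the 8 WT calls and 0 of the 6 ΔSE calls, and reversed Saa1 in WT to -0.60 (adjusted p = 0.955), and the cause was not tested. That fit called 18 genes in all in WT and 0 in ΔSE (1902 and 646 at an unadjusted p under 0.05), and 91.2% of the factor's variance lay between the 2 days. With WT replicates 2 and 3 at p18 both left out, chosen after seeing the data, 5 genes were called in WT, from 1 library at p18. At p6, the 2 calls between the genotypes became 3 with DESeq2, 0 with 1 factor of unwanted variation, 0 in a fit of only the groups compared, 0 with the replicate block, 1 with library totals only and 0 to 3 with 1 library left out. At p18, none became 1 with DESeq2, 1 in a fit of only the groups compared and 0 to 1 with 1 library left out. For the interaction, none became 5 with DESeq2, 1 with filterByExpr, 1 with the muscle covariate, 2 with no filter and 0 to 5 with 1 library left out. Among all genes, DESeq2 called 908 at p6, 496 at p18 and 584 for the interaction, against 183, 56 and 27 by edgeR.

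The replicate block was a paired fit on numbers shared by groups, but only 5 of 19 same-numbered pairs had a correlation over 0.1 (range -0.252 to 0.218), so the numbers were not used as pairs. It gave Lcn2 -1.35 (adjusted p = 0.0546) and Igfbp5 -0.82 (adjusted p = 0.0942) at p6 and changed no other call. Scaling by library totals moved the median of all genes to -0.42 in WT, -0.65 in ΔSE, 0.16 between the genotypes at p6 and -0.28 for the interaction, and 763 of 4426 called genes in WT and 628 of 8597 in ΔSE were then higher, against 3068 of 5279 and 3083 of 6348 under TMM. Depth limits Saa1, Saa2 and Saa3 at p6.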
